A study of Mus musculus with 6 samples.

Results

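Complement components, receptors and regulators were followed in Renca tumors grown at 2 sites. The 35 genes were listed by name, and each had exactly 1 transcript cluster paired with a single gene symbol, so 35 of 35 were measured among 19938 genes in all. Renca is a renal carcinoma cell line of BALB/c mice. Cells were placed in BALB/c mice in the outer cortex of the kidney (intrakidney tumors 1 to 3) or beneath the skin (subcutaneous tumors 1 to 3). All 6 tumors were removed 12 days later. The labels name no other treatment and no genetic change of mice or cells. RNA of whole tumors was read on mouse gene arrays that probe whole transcripts, 1 array per tumor, and values are log2 RMA expression values. The labels give neither the age nor the sex of the mice.

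Complement is a cascade of plasma and membrane proteins. C1q, mannose-binding lectins, collectins and ficolins recognise surfaces, attached serine proteases cleave C4 and C2, and factor B with properdin builds and stabilises the alternative pathway convertase. The convertases release the small fragments C3a and C5a, which act on receptors of myeloid cells, and C5b starts the membrane attack complex with C6, C7, C8 and C9. Most soluble components are secreted by the liver, whereas C1q and properdin come largely from macrophages and other leukocytes.

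The median value per array lay between 7.08 and 7.11, and having 3 arrays per group limits the precision throughout. Intrakidney tumor 3 stood apart from the other 5 arrays in liver transcripts. The mean log2 value over 9 of 10 listed hepatocyte markers was 9.07 there, against 5.81 and 6.24 in the other intrakidney tumors and 5.77 to 5.99 beneath the skin, with albumin (Alb) at 11.83 against 5.88 and 7.20 and against 5.50 to 5.60. Proximal tubule markers (11 of 12 measured) averaged 6.41, 6.81 and 7.34 in intrakidney tumors 1, 2 and 3, against 6.26 to 6.42 on the subcutaneous arrays. The labelled tumor type was checked on renal epithelial genes (8 of 9 measured), whose mean was 9.20 to 9.37 in intrakidney and 9.26 to 9.32 in subcutaneous tumors, with Pax8, a renal lineage factor, between 10.04 and 10.18 on all arrays. Adipocyte markers (7 of 7) averaged 7.42 to 7.60 in intrakidney and 6.30 to 6.50 in subcutaneous tumors, and red blood cell markers (2 of 5) 7.04 to 7.19 and 6.67 to 6.87. Results that rest on intrakidney tumor 3 are given with and without it.

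The question was which complement transcripts differ with the place where the same tumor cells grow. C5ar1, which encodes the main C5a receptor, was the only 1 of the 35 genes past an adjusted p of 0.05 (limma, Benjamini-Hochberg over 19938 genes), and it was higher in intrakidney tumors. The other 34 did not pass, and 0 passed in the lower direction, where 0 also had an unadjusted p under 0.05. Over all genes 0.13% passed as higher and 0.1% as lower. At an unadjusted p under 0.05 there were 8 members higher (22.9% of 35), against 4.72% of all genes higher and 3.71% lower. In 8 members (22.9% of 35), all 3 intrakidney arrays lay above all 3 subcutaneous arrays, against 8.41% of all genes. In 0 members they lay below, against 6.53% of all genes. The log2 fold change, intrakidney minus subcutaneous throughout, was above 0 in 27 of 35 members (77.1%) and in 48.0% of all genes, and its median was 0.16 in the members and -0.0058 over all genes. The members were chosen with earlier results of these data known, so these counts, shares and medians are a description only. Whether a difference in a whole tumor reflects more cells of a type or more RNA per cell cannot be told apart in such bulk samples.

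**Figure D1:**
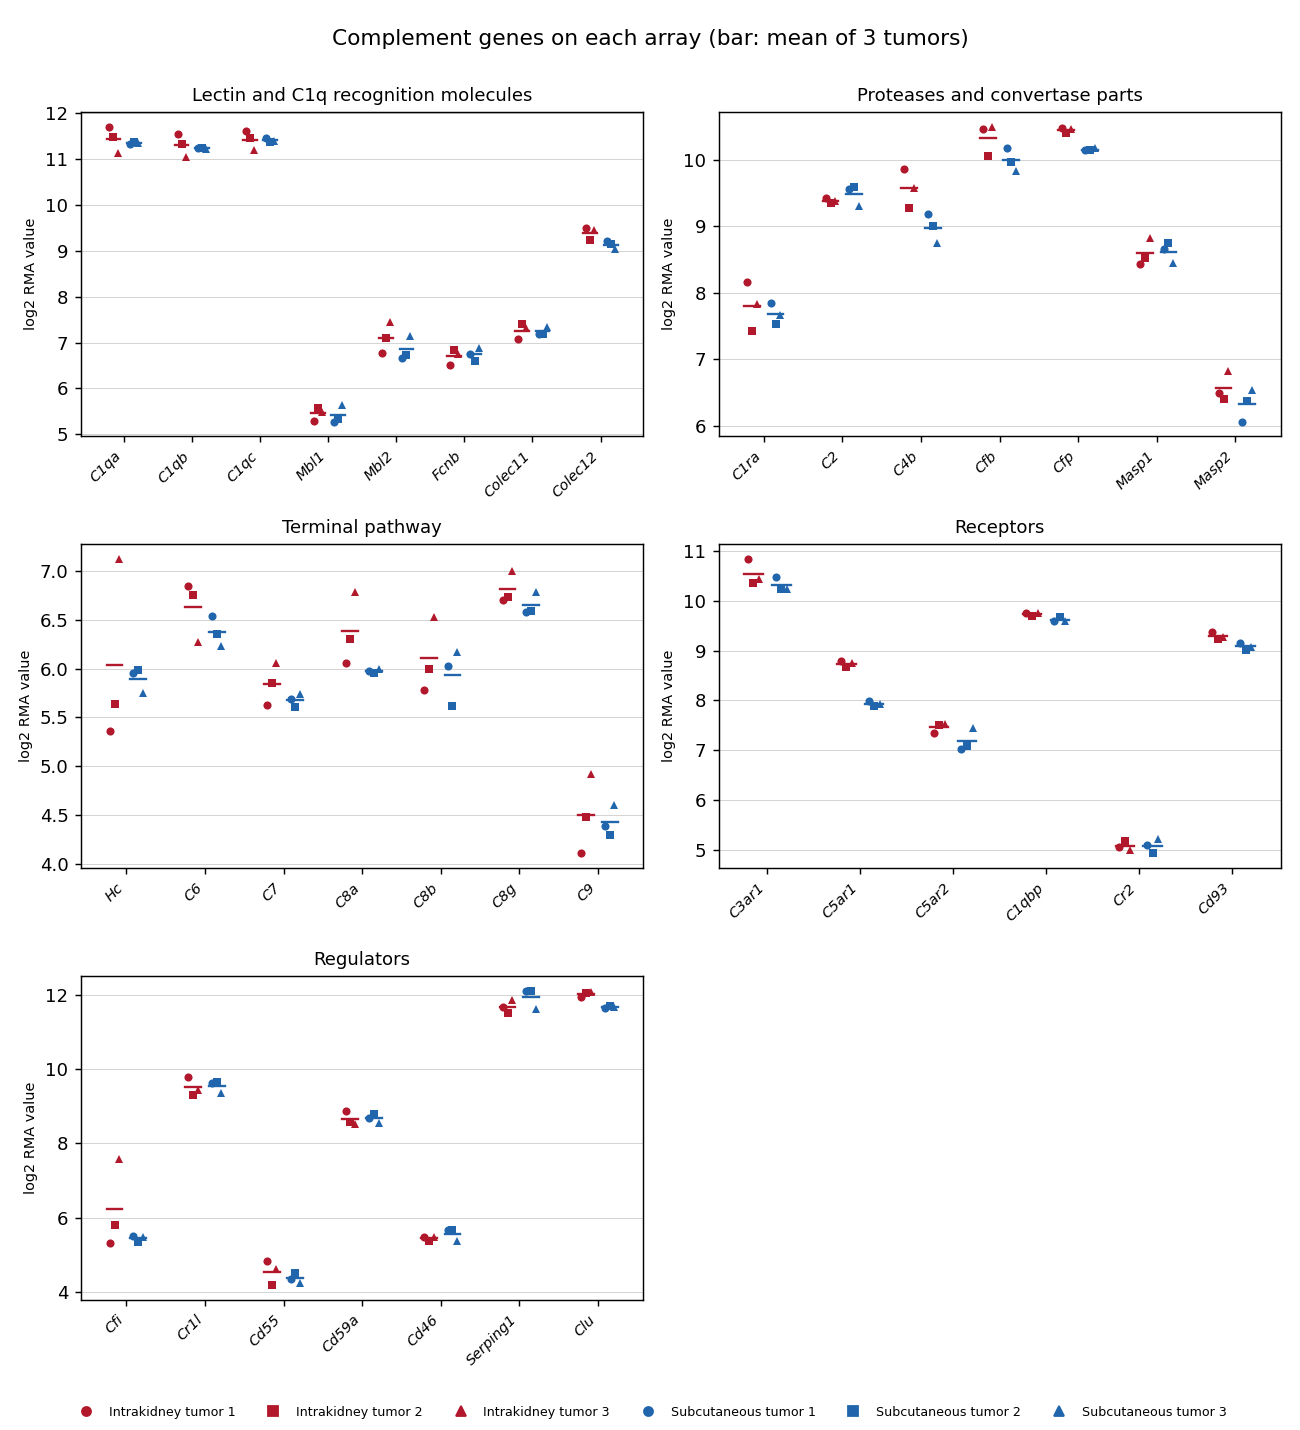
Log2 RMA values (y axis) of the 35 complement genes (x axis) by role, with 3 intrakidney tumors in red left of 3 subcutaneous tumors in blue. Symbols mark the tumor number and bars the mean. C5ar1 holds the intrakidney arrays at 8.67 to 8.79 and the subcutaneous arrays at 7.89 to 7.98, while Cfi and Hc have a single high array, intrakidney tumor 3.

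Receptors held the 1 call. C5ar1 (transcript cluster 10560242), a G protein-coupled receptor of neutrophils, monocytes and macrophages that draws these cells toward C5a, measured 8.79, 8.67 and 8.76 in intrakidney tumors 1, 2 and 3 and 7.98, 7.89 and 7.92 in subcutaneous tumors 1, 2 and 3. The groups were far apart and tight, with means of 8.74 ± 0.058 and 7.93 ± 0.045 (SD, n = 3 per group). It rose 1.75-fold, a log2 fold change of 0.81 ± 0.07 (SE, 95% interval 0.65 to 0.97, limma adjusted p = 0.0113). Without intrakidney tumor 3 the log2 fold change was 0.80 (adjusted p = 0.0422). It was 0.79 to 0.84 over the 6 fits that left out 1 array each, but the adjusted p was 0.0766, 0.0880 and 0.0688 without subcutaneous tumor 1, 2 or 3, where the call was lost, as it was with all 35512 transcript clusters tested (adjusted p = 0.0876).

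C5ar2 (transcript cluster 10560237), the neighbouring gene for a second C5a receptor that does not couple to G proteins, measured 7.35, 7.50 and 7.52 in intrakidney tumors and 7.02, 7.08 and 7.44 in subcutaneous tumors. Its groups overlapped because subcutaneous tumor 3 lay above intrakidney tumor 1, and the log2 fold change was 0.27 ± 0.12 (SE, 95% interval -0.0085 to 0.56, adjusted p = 0.611). C3ar1, the receptor of C3a, measured 10.85, 10.36 and 10.44 in intrakidney and 10.48, 10.25 and 10.23 in subcutaneous tumors. Its groups overlapped, with a log2 fold change of 0.23 (95% interval -0.09 to 0.55, adjusted p = 0.737).

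Cd93, a membrane glycoprotein of endothelium and myeloid cells once described as a C1q receptor, measured 9.38, 9.24 and 9.27 in intrakidney and 9.17, 9.02 and 9.08 in subcutaneous tumors. The groups did not overlap, yet it missed the threshold (log2 fold change 0.21, adjusted p = 0.496). The endothelial list (6 of 6) averaged 8.21 to 8.27 in intrakidney and 7.85 to 8.02 in subcutaneous tumors, and its part was not tested. C1qbp, a mostly mitochondrial protein that binds C1q globular heads, measured 9.76, 9.71 and 9.76 in intrakidney and 9.59, 9.69 and 9.59 in subcutaneous tumors, which also did not overlap (0.12, adjusted p = 0.723). Cr2, the complement receptor of B cells and follicular dendritic cells, was dim on every array at 4.99 to 5.17 in intrakidney and 4.92 to 5.21 in subcutaneous tumors. The B cell list (4 of 5 measured) averaged 6.10 to 6.16 and 5.96 to 6.22.

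Leukocyte marker lists differed in how far they separated the sites. The macrophage list (9 of 10 measured, with Cd68 at 12.51 to 12.58 and 12.50 to 12.68) averaged 10.26 to 10.53 in intrakidney and 10.29 to 10.35 in subcutaneous tumors, which overlap. The neutrophil list (7 of 7) averaged 6.26, 6.45 and 6.91 over intrakidney tumors 1, 2 and 3, against 5.98 to 6.08 for subcutaneous tumors, without overlap. The list of resident serosal macrophages (6 of 7) averaged 6.80 to 6.95 and 6.02 to 6.18. Of its genes, 2 were past the threshold, 1 of them Vsig4. Gata6 and Timd4, markers of these cells, were apart between the sites by less than the list mean. Their log2 fold changes were 0.21 and 0.31, short of the threshold (limma adjusted p = 0.683 and 0.408). Values on log2 arrays have no true 0, so absence cannot be read from them. The part of these cell types in the C5ar1 result was not tested.

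**Figure D2:**
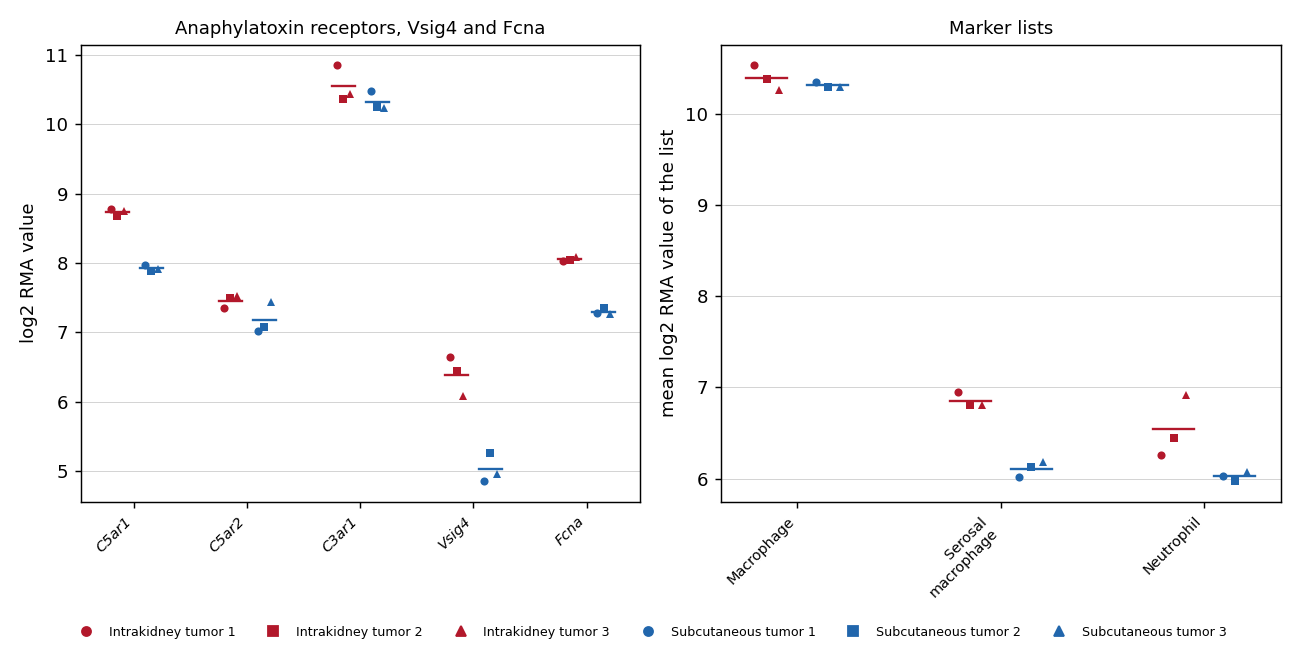
Left, log2 RMA values of the anaphylatoxin receptor genes and of Vsig4 and Fcna per tumor, and right, the mean log2 RMA value of 3 marker lists per tumor, with intrakidney tumors in red left of subcutaneous tumors in blue and bars for means. C5ar1, Vsig4 and Fcna separate the sites, while C5ar2, C3ar1 and the macrophage list overlap.

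Promoter sequence is shown for the 3 complement genes past the threshold, C5ar1 and, from the wider complement list described last, Fcna and Vsig4, which differed in the same direction, and for C1qb and C1qc, whose values ran in the same order over the intrakidney arrays. The remaining C1q chain gene, C1qa, ran in that order too, and its sequence is not shown. The sequences are from RefSeq (GRCm38.p6), 5′ to 3′ on the strand of the gene, and cover the 250 bases before the listed start. Capitals mark the letters GAGGAA on either strand, a core recognised by PU.1, the lineage factor of macrophages and neutrophils. For C5ar1 and Fcna the annotated gene has a start further upstream than the one listed.
C5ar1, chr7:16259339-16259588, minus strand: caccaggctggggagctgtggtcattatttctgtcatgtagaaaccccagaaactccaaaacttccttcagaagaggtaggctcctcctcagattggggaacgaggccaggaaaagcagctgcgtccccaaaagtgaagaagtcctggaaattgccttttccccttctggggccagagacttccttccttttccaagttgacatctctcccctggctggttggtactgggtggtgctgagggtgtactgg
Fcna, chr2:25627975-25628224, minus strand: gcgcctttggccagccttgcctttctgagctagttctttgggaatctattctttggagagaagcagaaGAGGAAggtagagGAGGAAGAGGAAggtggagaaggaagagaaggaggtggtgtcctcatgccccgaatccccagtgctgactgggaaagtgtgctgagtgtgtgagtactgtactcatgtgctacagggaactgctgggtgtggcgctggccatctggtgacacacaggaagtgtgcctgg
Vsig4, chrX:96293439-96293688, minus strand: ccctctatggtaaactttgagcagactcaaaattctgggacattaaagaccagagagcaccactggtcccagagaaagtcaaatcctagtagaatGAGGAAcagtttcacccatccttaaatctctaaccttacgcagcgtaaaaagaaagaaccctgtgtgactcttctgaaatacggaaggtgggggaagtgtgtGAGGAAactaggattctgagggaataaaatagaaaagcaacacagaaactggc
C1qb, chr4:136886201-136886450, minus strand: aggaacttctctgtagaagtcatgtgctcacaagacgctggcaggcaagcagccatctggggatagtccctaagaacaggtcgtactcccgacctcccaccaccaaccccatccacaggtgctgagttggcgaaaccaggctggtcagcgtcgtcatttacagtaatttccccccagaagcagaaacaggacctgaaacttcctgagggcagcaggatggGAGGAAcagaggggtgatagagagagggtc
C1qc, chr4:136892915-136893164, minus strand: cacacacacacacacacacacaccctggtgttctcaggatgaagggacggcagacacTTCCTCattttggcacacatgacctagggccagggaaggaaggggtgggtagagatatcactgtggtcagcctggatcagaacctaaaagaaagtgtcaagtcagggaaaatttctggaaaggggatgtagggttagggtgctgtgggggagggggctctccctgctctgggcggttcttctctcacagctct

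GAGGAA was found 3 times before Fcna, 2 times before Vsig4, 1 time before C1qb and 1 time before C1qc, on the other strand there, and 0 times before C5ar1. It occurred on either strand in 23.3% of the 32851 windows of all genes and in the windows of 4 of the 25 members that had one (C1qb, C1qc, C5ar2 and Cd59a). C1qa was not among these 4. The letters TTNNGCAA, a form of the C/EBP site, occurred on either strand in 9.56% of all windows and in those of 3 members (C5ar2, C9 and Fcnb). Neither motif contains the other, and a match describes these letters only.

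Recognition molecules gave 0 calls among 8 members. The 3 chains of C1q, encoded side by side and assembled into 1 protein, were bright and lay in the same order over the intrakidney tumors. C1qa (transcript cluster 10517517) measured 11.69, 11.48 and 11.13 in intrakidney tumors 1, 2 and 3 and 11.31, 11.37 and 11.34 in subcutaneous tumors. C1qb measured 11.55, 11.32 and 11.04 in intrakidney tumors and 11.23, 11.24 and 11.20 in subcutaneous tumors. C1qc measured 11.61, 11.45 and 11.19 in intrakidney tumors and 11.46, 11.35 and 11.39 in subcutaneous tumors. In each chain intrakidney tumor 1 was the highest and intrakidney tumor 3 the lowest of the 6 arrays. The group difference was therefore small against the intrakidney spread, at 0.09, 0.08 and 0.01 on the log2 scale for C1qa, C1qb and C1qc (adjusted p = 0.934, 0.940 and 0.991), with intrakidney SDs of 0.29, 0.25 and 0.21 against subcutaneous SDs of 0.03, 0.02 and 0.05. Without intrakidney tumor 3 these differences were 0.24, 0.21 and 0.13, still short of the threshold (adjusted p = 0.722, 0.807 and 0.911). The macrophage list ran in the same order over the intrakidney arrays, at 10.53, 10.38 and 10.26 in tumors 1, 2 and 3. It was at 10.35, 10.29 and 10.29 in subcutaneous tumors 1, 2 and 3. The part of macrophages in the C1q values was not tested.

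Colec12, a scavenger receptor with a collectin domain found on endothelium and stroma, measured 9.50, 9.22 and 9.45 in intrakidney and 9.21, 9.15 and 9.03 in subcutaneous tumors. The groups were apart by a narrow gap and the gene did not pass (log2 fold change 0.26 ± 0.10 SE, adjusted p = 0.497). The endothelial list (6 of 6) averaged 8.21 to 8.27 in intrakidney and 7.85 to 8.02 in subcutaneous tumors. The fibroblast list (8 of 8) averaged 9.08 to 9.94 in intrakidney and 9.96 to 10.15 in subcutaneous tumors. The part of either cell type in the Colec12 values was not tested. The mannose-binding lectin genes Mbl1 and Mbl2, made mainly by hepatocytes, had log2 fold changes of 0.05 and 0.25, and Mbl2 was highest in intrakidney tumor 3 at 7.45, against 6.77 and 7.09 in the other intrakidney tumors and 6.66 to 7.15 in subcutaneous tumors. Without that tumor the Mbl2 difference was 0.08. Fcnb, the ficolin of neutrophils and monocytes in mice, and Colec11, a soluble collectin, differed by -0.04 and 0.02 (adjusted p = 0.969 and 0.986).

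**Figure D3:**
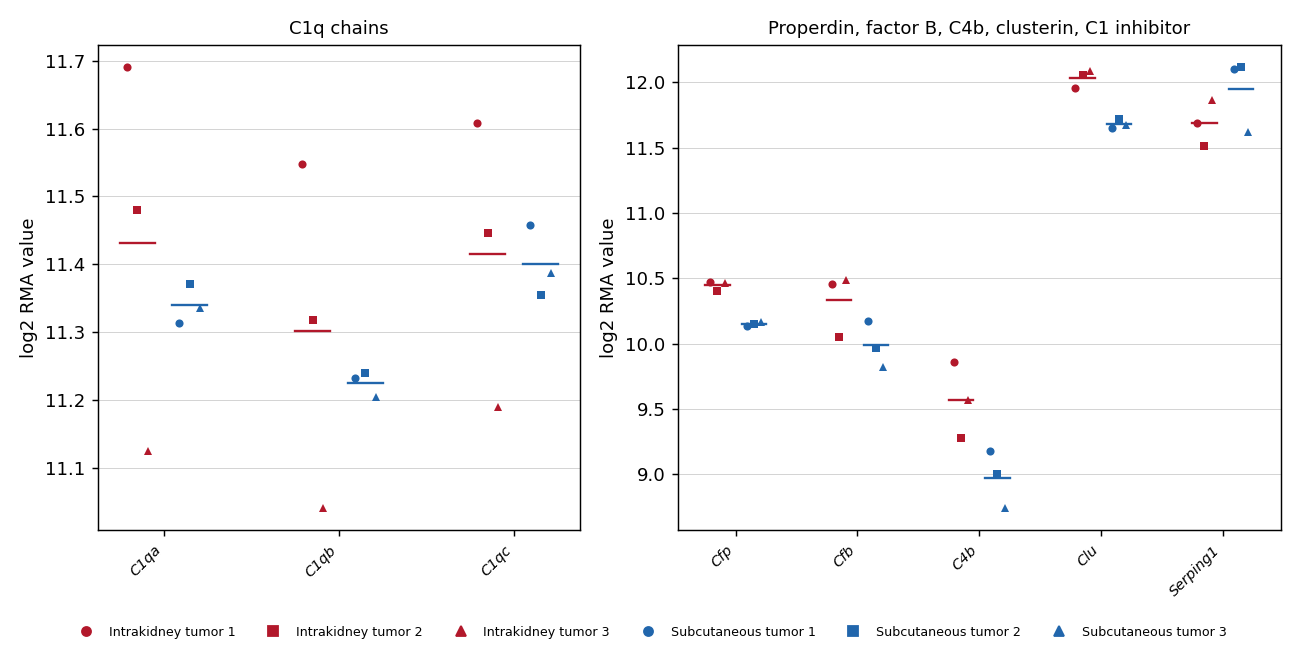
Log2 RMA values per tumor of the C1q chains (left) and of properdin (Cfp), factor B (Cfb), C4b, clusterin (Clu) and C1 inhibitor (Serping1) (right), with intrakidney tumors in red left of subcutaneous tumors in blue and bars for means; the y axes do not start at 0. In each C1q chain intrakidney tumor 1 is at the top and intrakidney tumor 3 at the bottom, around tight subcutaneous values, and Cfp and Clu are apart between sites.

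Among the proteases and convertase parts, 0 of 7 members passed. Cfp (transcript cluster 10603860) encodes properdin, the plasma protein that stabilises the alternative pathway convertase and is released by neutrophils and macrophages. It measured 10.47, 10.41 and 10.46 in intrakidney and 10.14, 10.15 and 10.17 in subcutaneous tumors. The spread within each group was a fraction of the gap (SD 0.034 and 0.015, n = 3 per group), but the difference was small, at 0.29 ± 0.06 on the log2 scale (SE, unadjusted p = 0.00214, adjusted p = 0.204). It passed with an intensity trend and robust prior (adjusted p = 0.0408) and with array weights (adjusted p = 0.0259), out of 16 other settings. In these 2 settings 138 and 624 genes passed in all.

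C4b (transcript cluster 10450242), the complement C4 gene whose product is cleaved by C1s and MASP proteases, had the largest difference of this role at 0.59 ± 0.17 on the log2 scale (SE, 95% interval 0.21 to 0.98, adjusted p = 0.357). It measured 9.86, 9.28 and 9.57 in intrakidney and 9.18, 9.0 and 8.74 in subcutaneous tumors. All intrakidney values lay above all subcutaneous ones, with a gap of under 1 SD between the nearest arrays. C4a, a near-identical copy whose signal may not be separable, measured 7.97, 7.61 and 7.73 in intrakidney and 7.63, 7.66 and 7.23 in subcutaneous tumors (0.26, adjusted p = 0.700).

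Cfb, the factor B protease of the alternative convertase, measured 10.45, 10.05 and 10.49 in intrakidney and 10.17, 9.97 and 9.82 in subcutaneous tumors. Intrakidney tumor 2 lay among the subcutaneous values, and the log2 fold change was 0.34 ± 0.14 (SE, adjusted p = 0.573). C2, its classical pathway counterpart and neighbouring gene, also had overlapping groups, at 9.34 to 9.42 in intrakidney and 9.31 to 9.59 in subcutaneous tumors (-0.10, adjusted p = 0.859). C1ra, 1 of the proteases carried by C1q, measured 7.42 to 8.16 and 7.53 to 7.85 (0.12, adjusted p = 0.934), and it has a close copy, C1rb, with which it shares a second transcript cluster that was left out. The lectin pathway proteases Masp1 and Masp2 differed by -0.02 and 0.25 (adjusted p = 0.988 and 0.736), and by -0.14 and 0.13 without intrakidney tumor 3, which held the highest value of both at 8.83 and 6.82.

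**Figure D4:**
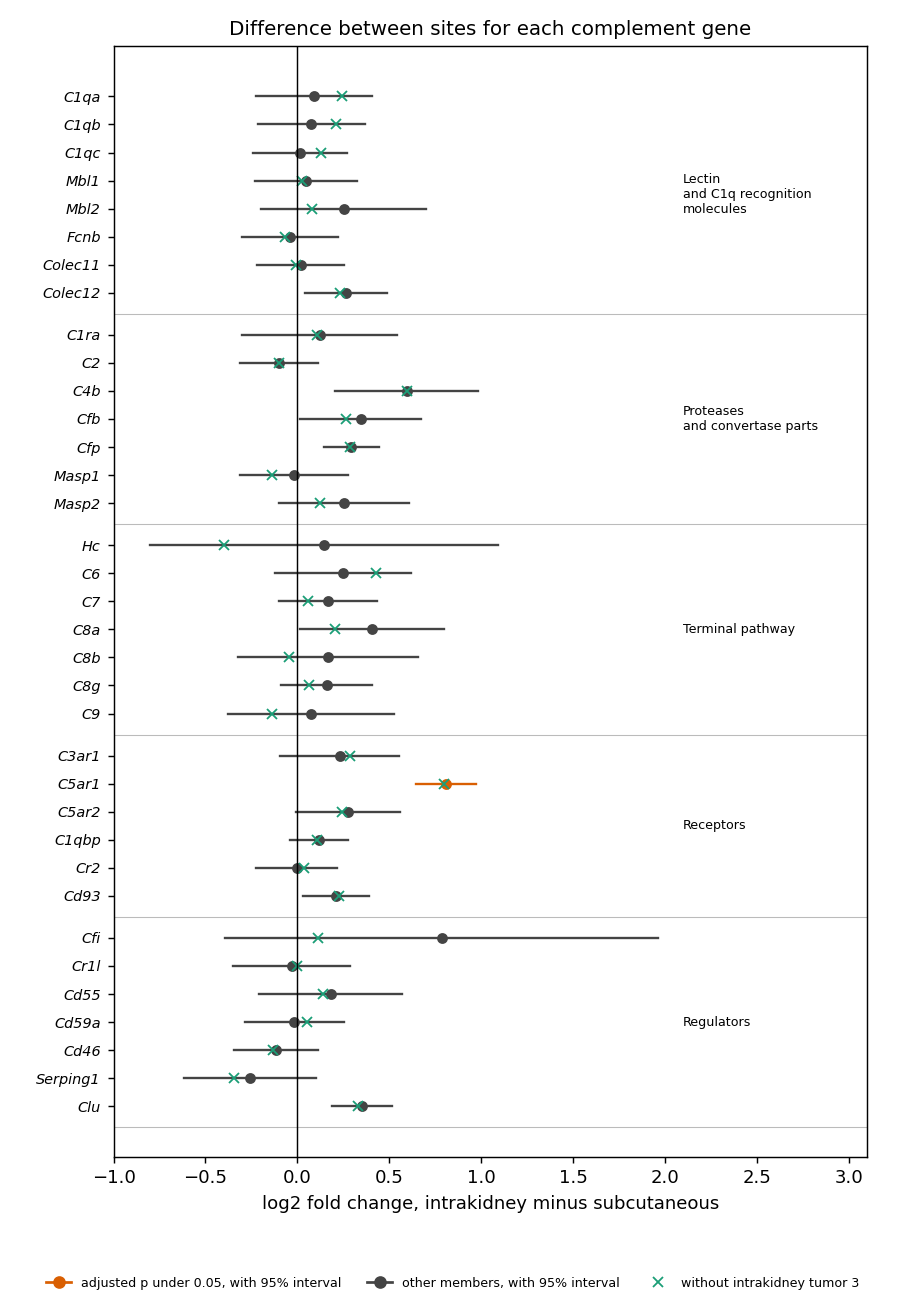
Log2 fold change of each complement gene, intrakidney minus subcutaneous (x axis), by role (y axis), as points with 95% intervals of the moderated fit; crosses give the value without intrakidney tumor 3. C5ar1 at 0.81 is the 1 gene past the threshold, and Hc and Cfi have the widest intervals and the largest shifts without that tumor.

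The terminal pathway and factor I followed 1 array. All 7 terminal genes were dim, under the 40th percentile of mean value over all genes, and 0 passed. Their log2 fold changes were above 0 in 7 of 7 with all arrays and in 4 of 7 without intrakidney tumor 3, where the median was 0.06 in place of 0.17. Intrakidney tumor 3 had the highest value in 6 of the 7, against 12.6% of all genes.

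Hc (transcript cluster 10481962), which encodes C5, the source of C5a and of the first piece of the attack complex, measured 5.36, 5.64 and 7.12 in intrakidney tumors 1, 2 and 3 and 5.96, 5.98 and 5.75 in subcutaneous tumors. Intrakidney tumors 1 and 2 were the lowest of all arrays and intrakidney tumor 3 the highest, so that the difference of 0.14 ± 0.41 (SE, adjusted p = 0.967) turned to -0.40 ± 0.12 (SE, adjusted p = 0.570) without tumor 3. Cfi (transcript cluster 10496001), the plasma protease factor I that cuts C3b and C4b, measured 5.30, 5.80 and 7.57 in intrakidney and 5.50, 5.34 and 5.48 in subcutaneous tumors. Its difference of 0.79 ± 0.51 (SE, 95% interval -0.39 to 1.97, adjusted p = 0.758) was 0.11 ± 0.15 without tumor 3.

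C8a, the alpha chain of C8, measured 6.06, 6.30 and 6.78 in intrakidney tumors and 5.97, 5.96 and 6.0 in subcutaneous tumors. Its groups did not overlap, and the difference was 0.41 with tumor 3 and 0.20 without it (adjusted p = 0.578 and 0.828). C8b, the neighbouring beta chain gene, measured 5.78, 6.0 and 6.53 in intrakidney and 6.03, 5.62 and 6.17 in subcutaneous tumors, which overlap (0.17, and -0.05 without tumor 3). C9, which polymerises into the pore, measured 4.11, 4.48 and 4.92 in intrakidney and 4.39, 4.30 and 4.60 in subcutaneous tumors (0.07, and -0.14 without tumor 3). C7 and the C8 gamma chain gene C8g differed by 0.17 and 0.16, and by 0.06 each without tumor 3.

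C6 ran the other way within the intrakidney tumors. It measured 6.85, 6.76 and 6.27 in intrakidney tumors 1, 2 and 3 and 6.54, 6.36 and 6.23 in subcutaneous tumors, with a difference of 0.25 with tumor 3 and 0.43 ± 0.11 (SE) without it (adjusted p = 0.757 and 0.436). Alb and Ahsg, defining hepatocyte markers, had the same order over the intrakidney tumors as Hc and Cfi, at 5.88, 7.20 and 11.83 and at 5.23, 5.87 and 9.93 in tumors 1, 2 and 3, against 5.30 to 5.40 for Ahsg in subcutaneous tumors. The part of hepatocyte transcripts in these values was not tested.

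**Figure D5:**
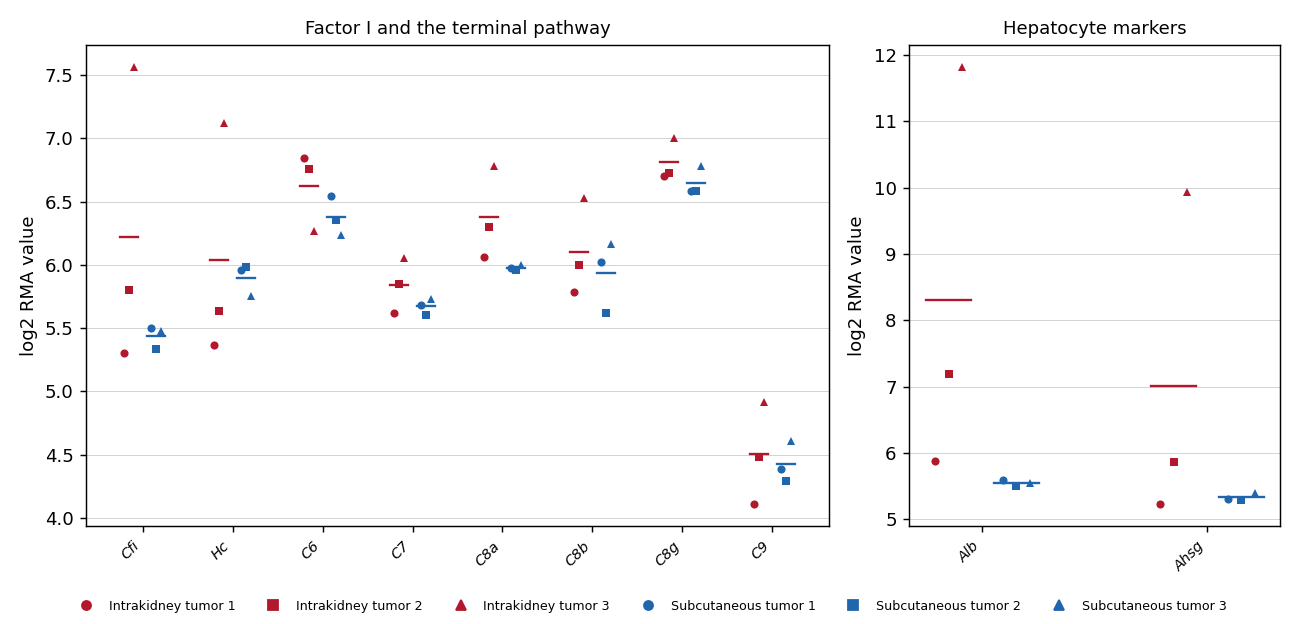
Log2 RMA values per tumor of Cfi and the terminal pathway genes (left) and of the hepatocyte markers Alb and Ahsg (right), with intrakidney tumors in red left of subcutaneous tumors in blue and bars for means; the y axes do not start at 0. Intrakidney tumor 3 (triangle) is the highest array for every gene shown other than C6.

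Of the 7 regulators, with Cfi counted among them, 0 passed, and they were split in direction, with 3 above 0 and 4 below. Without intrakidney tumor 3, 5 of 7 were above 0, and the median was 0.054 in place of -0.015. Clu (transcript cluster 10416057), which encodes clusterin, a secreted chaperone that blocks assembly of the attack complex, measured 11.96, 12.06 and 12.09 in intrakidney and 11.65, 11.72 and 11.67 in subcutaneous tumors. The groups were tight and apart, at means of 12.03 ± 0.067 and 11.68 ± 0.035 (SD, n = 3 per group), and the log2 fold change of 0.35 ± 0.07 (SE, unadjusted p = 0.00120, adjusted p = 0.152) missed the threshold. It passed in 2 of 16 other settings, an intensity trend and robust prior (adjusted p = 0.0143) and array weights (adjusted p = 0.0178). In these settings 138 and 624 genes passed in all.

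Serping1, the C1 inhibitor that inactivates C1r, C1s and MASP proteases, lay the other way. It measured 11.69, 11.52 and 11.87 in intrakidney and 12.10, 12.12 and 11.62 in subcutaneous tumors, where subcutaneous tumor 3 fell among the intrakidney values (-0.26 ± 0.15 SE, 95% interval -0.61 to 0.10, adjusted p = 0.732). The membrane regulators gave no separation of the sites. Cr1l, which encodes Crry, the broadly expressed inhibitor of C3 convertases in mice, measured 9.30 to 9.78 in intrakidney and 9.37 to 9.65 in subcutaneous tumors (-0.03, 95% interval -0.35 to 0.29). Cd59a, which blocks the attack complex, measured 8.53 to 8.88 and 8.55 to 8.80 (-0.02, 95% interval -0.28 to 0.25). Cd55 (decay accelerating factor) and Cd46, which in mice is made mainly in testis, were dim, with differences of 0.18 and -0.12 (adjusted p = 0.862 and 0.841), and both Cd55 and Cd59a have a close copy in the mouse genome.

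Wider complement genes were taken from a list made by textbook role. It was drawn up with earlier results of these data known, so its counts are a description only. Of 28 listed, 20 had a transcript cluster with a single symbol, and the others were not analysed here. In this list 2 of 20 were higher past the threshold and 0 lower, beside the 0.13% and 0.1% over all genes, and the log2 fold change was above 0 in 16 of 20, with a median of 0.16. Without intrakidney tumor 3 it was above 0 in 13 of 20, with a median of 0.07. Fcna (transcript cluster 10480849), the plasma ficolin that starts the lectin pathway and is made by macrophages of liver and spleen in mice, measured 8.04, 8.05 and 8.09 in intrakidney tumors and 7.28, 7.36 and 7.27 in subcutaneous tumors. It rose by 0.76 ± 0.07 on the log2 scale, or 1.69-fold (SE, adjusted p = 0.0117). An annotated antisense gene overlaps Fcna. Vsig4 (transcript cluster 10605848), the receptor for C3b and iC3b on tissue-resident macrophages, measured 6.65, 6.44 and 6.09 in intrakidney tumors and 4.86, 5.26 and 4.96 in subcutaneous tumors.

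Vsig4 rose 2.58-fold (log2 fold change 1.37 ± 0.16 SE, adjusted p = 0.0291). It was dim, at the 20th percentile of mean value over all genes, and passed in 7 of the 15 other settings that held it. Among the intrakidney arrays, Vsig4 was lowest and Fcna highest in tumor 3, where the hepatocyte list was highest. The part of liver transcripts in either gene was not tested. Without tumor 3, Fcna differed by 0.74 and Vsig4 by 1.52 (adjusted p = 0.0452 and 0.0240). Both calls were lost without any 1 of the subcutaneous tumors (adjusted p = 0.0791, 0.0880 and 0.0688 for Fcna and 0.160, 0.0880 and 0.120 for Vsig4 without tumors 1, 2 and 3), and that of Vsig4 also without intrakidney tumor 1 or 2 (adjusted p = 0.0635 and 0.0797). Vsig4 was also 1 of the serosal macrophage markers above. Without Vsig4, the remaining 5, which hold the other gene of that list past the threshold, averaged 6.88 to 7.01 in intrakidney and 6.25 to 6.43 in subcutaneous tumors. Of the others, Thbd, the endothelial thrombomodulin gene, and Itgb2, the beta chain of complement receptors 3 and 4, were apart between the groups and did not pass (0.43 and 0.26, adjusted p = 0.383 and 0.498). Vtn, Apcs and Crp, plasma proteins of the liver, were at 8.85, 6.92 and 6.64 in intrakidney tumor 3 alone, while their other values lay at 6.25 to 6.56, 5.08 to 5.30 and 4.60 to 4.70 in intrakidney and 5.82 to 6.45, 5.01 to 5.46 and 4.73 to 5.21 in subcutaneous tumors.

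The intrakidney tumors varied more among themselves than the subcutaneous ones in these genes. The SD was larger in the intrakidney group in 27 of 35 members (77.1%), against 59.4% of all genes, and the median SD was 0.21 and 0.14 for the members and 0.12 and 0.097 for all genes. The highest of the 6 arrays was intrakidney tumor 1 in 14 members, among them the C1q chains, C4b and C3ar1, and intrakidney tumor 3 in another 14, among them Hc, Cfi and Clu. The shares over all genes were 19.5% and 12.6%. The highest array was intrakidney tumor 2 in 1 member and a subcutaneous tumor in 6, against 4403 and 9141 of all 19938 genes.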

How the data were processed

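Total RNA of 3 intrakidney and 3 subcutaneous Renca tumors was measured on single-colour whole-transcript arrays. The deposited values are log2 expression values that the authors computed with RMA in affy, as the submitters' processing notes name. That method subtracts background, equalises arrays and condenses the probes of each cluster, so differences of dim genes are compressed. Versions, settings and genome build are not given in the sources used here, the log2 scale was read from the values (2.31 to 15.07), and whether all arrays were normalized together is unknown.

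Of 35512 transcript clusters, the platform annotation pairs 21789 with exactly 1 gene, 1621 with several, and 12102 are unnamed here. For 999 genes with several clusters the one with the highest mean was taken, which left 19938 genes. All 35 members had 1 cluster with a single gene symbol and matched RefSeq (GRCm38.p6, used for names and promoter sequences) by Entrez identifier.

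The 2 sites were set against each other in limma 3.58.1 (R 4.3.3) (group means, moderated by eBayes with its constant prior, two-sided), adjusted by Benjamini-Hochberg over all genes with a threshold of 0.05. The labels name no batch. The fit was tested on simulated data. Values per array are given in full for members that passed, whose groups do not overlap, or that range over at least 1 on the log2 scale, and for further members named for their role. The members, the roles, the wider complement list and the marker lists were chosen with earlier results of these data known. Alternatives were quantile normalization, median centring, an offset of 16, a filter at the 40th percentile of the mean, averaged clusters, every cluster, a robust prior with intensity trend, weighted arrays, a block for the replicate number, an adjusted p of 0.01, and leaving out each array.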

Additional observations from a re-analysis of the deposited data

How the results depend on the processing

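The log2 fold change of C5ar1 was 0.77 to 0.84 over the 16 other settings, and it passed in 10 of them (adjusted p 0.00100 to 0.0880). The number of members higher past the threshold, 1 as reported, was 0 when every cluster was tested, 0 with an adjusted p of 0.01, 3 with an intensity trend and robust prior (C5ar1, Cfp and Clu) and 5 with array weights (those, C4b and C8a). It was 0 to 1 when single arrays were left out: 1 without any single intrakidney tumor and 0 without any single subcutaneous tumor. The number lower was 0 in every setting. The count over all genes, 46 as reported, was 624 with array weights, 138 with the trend, 101 without dim genes, 74 with the offset, 5 at an adjusted p of 0.01, 0 with every cluster and 2 to 33 without single arrays. The array weights were 0.35, 0.68 and 2.57 for intrakidney tumors 1, 2 and 3, so tumor 3 counted most in that group. For subcutaneous tumors 1, 2 and 3 they were 0.76, 3.55 and 0.61. The median of the members was 0.12 to 0.19 over the settings with all arrays and 0.11 to 0.20 without single arrays. Between 0 and 7 members changed sign in a setting, the largest of them C8b at 0.17, and none was past the threshold. With the replicate number as a block, 0 members and 0 genes passed (C5ar1 adjusted p = 0.0660). The numbers are not shown to pair the tumors: deviations of same-numbered tumors across genes correlated at 0.37, -0.16 and 0.10. The cause of these shifts was not tested. Signal over background is not in the deposited values, so dim members such as C9, Cd55 and Cr2 carry the weakest measurements.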
